A study of Drosophila melanogaster with 8 samples.

Results

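The Tweedle, Lcp and Ccp84A genes encode structural proteins of the insect cuticle. They were taken as every row of the deposited tables whose gene name begins with Twdl, Lcp or Ccp84A. This gave 50 of 15146 genes, of which 26 are Tweedle, 17 are Lcp and 7 are Ccp84A genes, and all 50 are in both tables. The choice used names and no measured value, but it was made with earlier results of these data known. RNA was sequenced from F1 embryos at stage 17 whose fathers, of the w1118 strain, had eaten food with 300 g/L sugar (high) or 30 g/L sugar (medium). It was also sequenced from sperm of adult w1118 males on food with 300 g/L or 30 g/L sugar. The 8 libraries are 2 for each of the 4 groups, made from whole animals for embryos and from spermatozoa for sperm. No source used here states the mothers' strain or food.

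The cuticle is the layer of chitin and protein that the epidermis secretes on its outer face and that becomes the coat of the larva. Lcp and Ccp84A proteins carry the Rebers and Riddiford domain, which binds chitin, and their genes lie in tandem arrays. Tweedle proteins are another family, with a domain of their own, and a dominant allele of TwdlD makes larvae and pupae short and squat. In a Drosophila embryo the larval cuticle is laid down late, so that a stage 17 embryo is at the end of this work.

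The deposited values are FPKM, the fragments counted per kilobase of RNA relative to the fragments sequenced, with 1 value per gene and group. The authors had combined the 2 libraries of a group, so no spread between libraries stands beside any level below, and the depth is unknown. A gene is called here where the authors tested it and its adjusted p was under 0.05 in their table. That p-value is the one measure of error in the tables. All ratios are high over medium sugar, and coordinates are those of BDGP5. For log2 ratios 0.1 FPKM was added to both values, so they understate differences between low ones.

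The tissue labels were checked on marker genes. In embryos 13 of 13 epidermis and cuticle control genes reached a mean of 1 FPKM, and 2 of 8 spermatid genes did. In sperm 9 of 13 epidermis and cuticle control genes also reached this level, led by mmy (18.4 FPKM in high sugar and 21.8 FPKM in medium sugar sperm) and Ddc (18.1 FPKM in high sugar and 21.5 FPKM in medium sugar sperm). So did 8 of 8 spermatid genes and 4 of 5 muscle genes, with Act57B at 943 FPKM in high sugar and 926 FPKM in medium sugar sperm. No source used here states how the values of either tissue were scaled, so levels of the 2 tissues are not compared.

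In embryos of high sugar fathers, RNA of these cuticle genes was mostly more abundant. The authors tested 33 of the 50, and 10 of the 33 rose while 0 fell (30.3% called). The background was 0.807% of 10163 tested genes called in either direction, 0.708% called higher and 0.0984% called lower. Of the 33, 18 (54.5%) were higher and 0 lower at an unadjusted p under 0.05 of the authors' deposited table, against 259 higher (2.55%) and 80 lower of all 10163 tested genes. All but 2 of the 33 tested genes, 93.9%, had the higher value in the high sugar group, against 43.4% of all tested genes. The median log2 ratio was 1.65 over the 33 tested genes and 1.17 over all 50, against -0.04 over all tested genes and 0 over all rows of the table. The remaining 17 were left untested by the authors, and none of these exceeded 1.53 FPKM in high sugar or 0.832 FPKM in medium sugar embryos. In whole embryos, more cells that make a transcript and more transcript per cell cannot be told apart.

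Counted without regard to a test, 38 of the 50 were higher in the high sugar group, 6 were lower and 6 were listed at 0 in both groups. The summed level of all 50 was 1815 FPKM in high sugar and 882 FPKM in medium sugar embryos, a ratio of 2.06. This sum rests on few genes. TwdlF, TwdlD and TwdlG made up 52.5% of it in high sugar and 72.1% in medium sugar embryos. Without TwdlF the ratio of the sums was 2.82. Over all 15146 genes the ratio of the summed FPKM was 1.12.

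**Figure D1:**
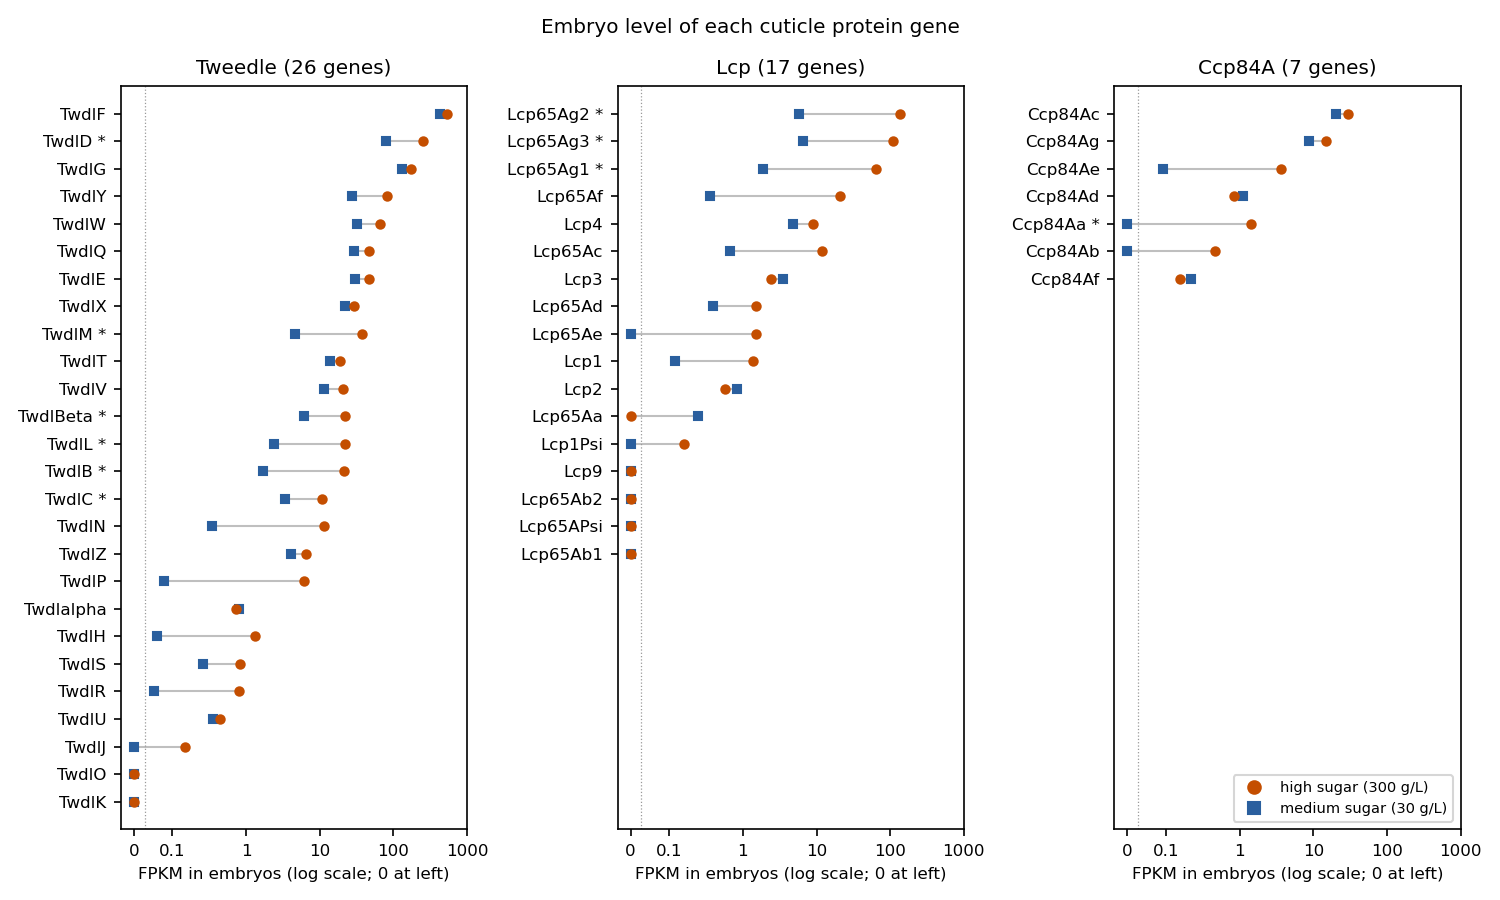
Level of each of the 50 genes in embryos, in FPKM on a log axis with values listed at 0 drawn left of the dotted line. Orange circles are high sugar and blue squares medium sugar, 1 value per group, and stars mark the 10 called genes. Abundant genes such as TwdlF (529.7 FPKM in high and 426 FPKM in medium sugar) have short lines between the groups, while Lcp65Ag2 (138 FPKM in high and 5.80 FPKM in medium sugar) has a long one.

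The 3 families differed in how abundant they were and in the ratio of their summed levels. No test of families against each other was possible without values per library. The 26 Tweedle genes summed to 1404 FPKM in high sugar and 826 FPKM in medium sugar embryos, a ratio of 1.70. The 17 Lcp genes summed to 359 FPKM in high sugar and 25.1 FPKM in medium sugar embryos, a ratio of 14.3. The 7 Ccp84A genes had 51.6 FPKM in high sugar and 30.7 FPKM in medium sugar embryos, a ratio of 1.68. The median log2 ratios over all genes of a family lay closer together, at 1.17 for Tweedle, 1.38 for Lcp and 0.78 for Ccp84A. Over tested genes they were 1.58, 3.97 and 0.78. Calls were 6 of 19 tested Tweedle genes (31.6%), 3 of 9 Lcp genes (33.3%) and 1 of 5 Ccp84A genes (20%).

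The Tweedle genes were the most abundant of the 3 families, and every one of the 19 that were tested had the higher value in the high sugar group. Of the 26, 12 lie in a single array of 21.9 kb on 3R, from 22444845 to 22466779, with no other annotated gene of the tables inside it. From left to right the order is TwdlM, TwdlP, TwdlB, TwdlL, TwdlO, TwdlK, TwdlJ, TwdlN, TwdlH, TwdlR, TwdlS and TwdlD. Summed over the array the level was 352 FPKM in high sugar and 89.4 FPKM in medium sugar embryos, a ratio of 3.94. TwdlD made up most of this sum in both groups, so the ratio leans on that gene. The median log2 ratio over the 12 genes was 2.76. The array held 4 of the 6 Tweedle calls.

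TwdlD, the family member named for body shape above, was the most abundant gene of the array. It had 250.2 FPKM in high sugar and 79.9 FPKM in medium sugar embryos, a ratio of 3.13 (adjusted p = 0.00959, taken from the authors' deposited table). It lies at the right end, at 22465748 to 22466779. TwdlM, at the left end, rose to 37.4 FPKM in high sugar embryos, against 4.63 FPKM in medium sugar embryos. Its near neighbours TwdlB and TwdlL, which lie side by side, had like values. TwdlB had 21.6 FPKM in high sugar and 1.69 FPKM in medium sugar embryos. TwdlL had 22.2 FPKM in high sugar and 2.37 FPKM in medium sugar embryos. The ratios were 8.06 for TwdlM, 12.8 for TwdlB and 9.38 for TwdlL, and the authors' deposited table gives all 3 an adjusted p of 0.00959.

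The genes between these calls were lower and more uneven. TwdlP, which lies between TwdlM and TwdlB, had 6.07 FPKM in high sugar and 0.078 FPKM in medium sugar embryos. Its ratio of 77.8 exceeded that of every other gene of the 50 with values above 0 in both groups, yet the authors' deposited table gives it an unadjusted p of 0.247 and it was not called. TwdlN, in the middle of the array, had 11.6 FPKM in high sugar and 0.346 FPKM in medium sugar embryos, and the authors' deposited table gives it an adjusted p of 0.433. TwdlH had 1.34 FPKM in high sugar and 0.0613 FPKM in medium sugar embryos and was tested but not called. Among those left untested, values were under 1 FPKM in both groups. TwdlR had 0.812 FPKM in high sugar and 0.0562 FPKM in medium sugar embryos. TwdlS had 0.817 FPKM in high sugar and 0.264 FPKM in medium sugar embryos. TwdlO and TwdlK were listed at 0 in both groups, and TwdlJ had 0.149 FPKM in high sugar and was listed at 0 in medium sugar embryos. Thus TwdlD at the right end and TwdlM, TwdlB and TwdlL in the left part had the highest values of the array in both groups. The stretch from TwdlO to TwdlJ was at or near 0 in both groups. All 9 genes of the array with values above 0 in both groups had ratios of at least 3.10.

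A second Tweedle array lies near the tip of 3R, from 69328 to 81316, and holds TwdlU, TwdlF, TwdlG and TwdlV. It held the most abundant Tweedle RNA of the embryo and small ratios. TwdlF had 529.7 FPKM in high sugar and 426 FPKM in medium sugar embryos (ratio 1.24). TwdlG had 173.9 FPKM in high sugar and 130.1 FPKM in medium sugar embryos (ratio 1.34). TwdlV had 20.6 FPKM in high sugar and 11.3 FPKM in medium sugar embryos (ratio 1.82). None of the 3 was called, and the authors' deposited table gives unadjusted p-values of 0.327, 0.153 and 0.019. TwdlU, a pseudogene in the BDGP6 annotation, had 0.441 FPKM in high sugar and 0.358 FPKM in medium sugar embryos and was not tested. Among the 50, TwdlF ranked 1 in both groups. TwdlD ranked 2 in high sugar and 3 in medium sugar embryos, and TwdlG ranked 3 in high sugar and 2 in medium sugar embryos.

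A further group, TwdlX, TwdlY, TwdlZ and Twdlalpha, shares a single locus entry on X, from 16621336 to 16645943, with CG9634 and CG32568. Overlapping genes can share reads, so these values are less certain. TwdlY had 81.6 FPKM in high sugar and 27.2 FPKM in medium sugar embryos, a ratio of 2.998, close to that of TwdlD. The authors' deposited table gives it an unadjusted p of 0.0203, and it was not called. TwdlX had 29.1 FPKM in high sugar and 21.8 FPKM in medium sugar embryos. TwdlZ had 6.60 FPKM in high sugar and 4.08 FPKM in medium sugar embryos. Twdlalpha, at 0.736 FPKM in high sugar and 0.810 FPKM in medium sugar embryos, was the one Tweedle gene with the lower value in the high sugar group, and it was not tested. The neighbours CG9634 (15.0 FPKM in high and 12.8 FPKM in medium sugar) and CG32568 (2.38 FPKM in high and 2.25 FPKM in medium sugar) were not called.

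The remaining 6 Tweedle genes stand alone, and 2 of them rose. TwdlBeta, on 2R at 7750042 to 7750753, had 22.3 FPKM in high sugar and 6.08 FPKM in medium sugar embryos (adjusted p = 0.0299, taken from the authors' deposited table). TwdlC, on 3R at 22820558 to 22822164, had 10.7 FPKM in high sugar and 3.39 FPKM in medium sugar embryos (adjusted p = 0.0353, taken from the authors' deposited table). Their ratios, 3.67 and 3.15, lay beside the 3.13 of TwdlD. TwdlW, on 3R at 12966920 to 12968120, came nearest to a call among those that missed it. It had 64.7 FPKM in high sugar and 31.9 FPKM in medium sugar embryos, and the authors' deposited table gives it an adjusted p of 0.103. TwdlQ, 51.6 kb to the right of TwdlD on 3R at 22518356 to 22519245, had 47.3 FPKM in high sugar and 29.3 FPKM in medium sugar embryos. TwdlE, on 2L at 7857077 to 7860838, had 46.0 FPKM in high sugar and 30.1 FPKM in medium sugar embryos. TwdlT, on 3R at 22853640 to 22889500, had 18.6 FPKM in high sugar and 13.9 FPKM in medium sugar embryos. The ratios of TwdlQ, TwdlE and TwdlT were between 1.35 and 1.61, and none of the 3 was called. TwdlE shares its locus entry with lectin-28C, and TwdlT with 3 other genes.

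**Figure D2:**
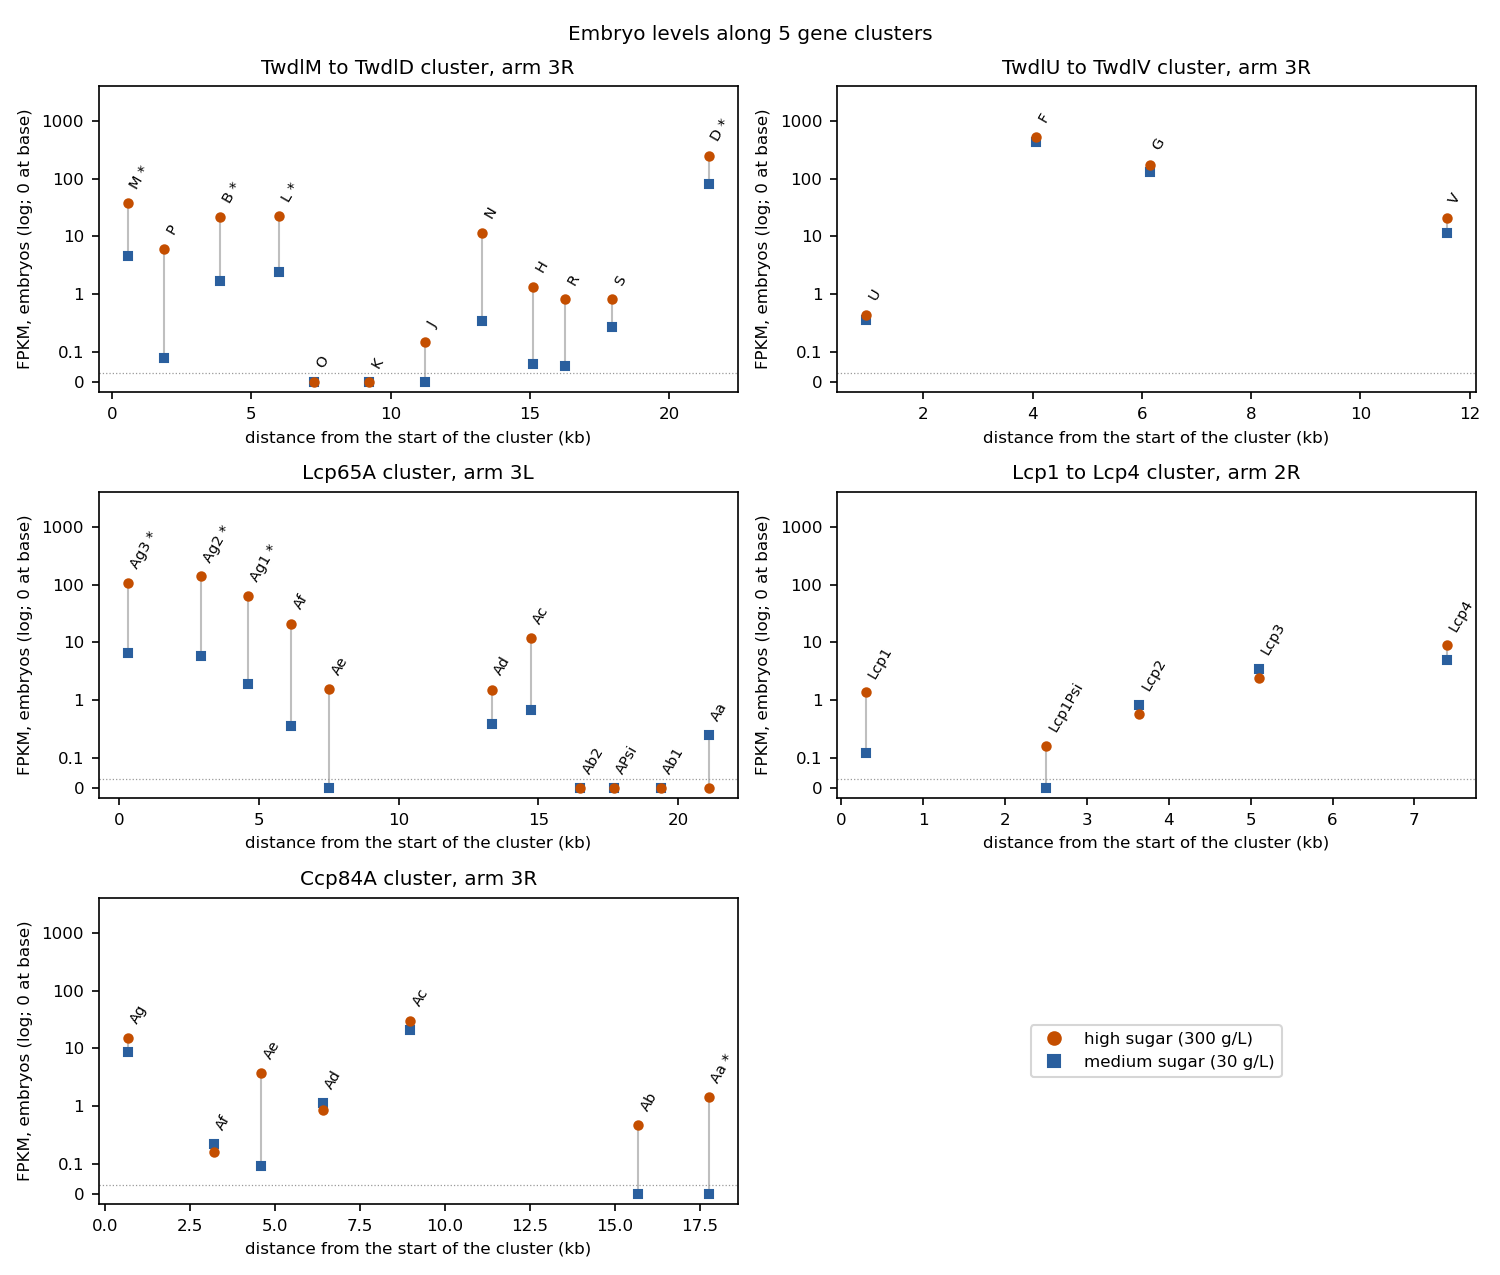
Embryo level of each gene against its distance from the start of its cluster in kb, for 5 of the 6 clusters, with FPKM on a log axis and values listed at 0 drawn below the dotted line. Orange circles are high sugar, blue squares medium sugar, and stars mark called genes, with family prefixes left off most names. The Lcp65A panel falls to 0 or near 0 on its right side in both groups, and the TwdlU to TwdlV panel shows the groups close together.

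Among the Lcp genes the difference was concentrated in 1 array. The Lcp65A array spans 21.3 kb on 3L, from 6123485 to 6144741, and holds 11 of the 17 Lcp genes. Its summed level was 346 FPKM in high sugar and 15.9 FPKM in medium sugar embryos, a ratio of 21.8. Lcp65Ag1, Lcp65Ag2 and Lcp65Ag3 are near-identical copies whose reads can be shared, so their sum is safer than their separate values. The 3 together had 309.6 FPKM in high sugar and 14.2 FPKM in medium sugar embryos. They made up 86.3% of the summed Lcp level in high sugar and 56.6% in medium sugar embryos.

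Each of the 3 copies was called, and the authors' deposited table gives each an adjusted p of 0.00959. Lcp65Ag2 had 138 FPKM in high sugar and 5.80 FPKM in medium sugar embryos. Lcp65Ag3 had 107 FPKM in high sugar and 6.52 FPKM in medium sugar embryos. Lcp65Ag1 had 64.2 FPKM in high sugar and 1.89 FPKM in medium sugar embryos. Among the 50 genes Lcp65Ag2 ranked 4 by level in high sugar and 15 in medium sugar embryos. Lcp65Ag1 ranked 8 in high sugar and 22 in medium sugar embryos.

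Among the Lcp genes of the array, the 3 Lcp65Ag genes at the left end had the highest levels in both groups. Lcp65Af, next to Lcp65Ag1, had 21.0 FPKM in high sugar and 0.358 FPKM in medium sugar embryos, a ratio of 58.6. Lcp65Ae, its neighbour, had 1.53 FPKM in high sugar and was listed at 0 in medium sugar embryos. These first 5 genes all lie on the minus strand in the BDGP6 annotation, and the other 6 lie on the plus strand. Of those 6, Lcp65Ad had 1.50 FPKM in high sugar and 0.391 FPKM in medium sugar embryos. Lcp65Ac had 11.9 FPKM in high sugar and 0.668 FPKM in medium sugar embryos. The right end was at or near 0 in both groups. Lcp65Ab2, the pseudogene Lcp65APsi and Lcp65Ab1 were listed at 0 in both groups, and Lcp65Aa was listed at 0 in high sugar and had 0.246 FPKM in medium sugar embryos. Lcp65Af, Lcp65Ad and Lcp65Ac were tested and not called, and the authors' deposited table gives them unadjusted p-values of 0.164, 0.194 and 0.0328.

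The array also holds 5 Cpr genes, cuticle proteins of the same domain family under another name. Cpr65Av, which lies between Lcp65Ae and Lcp65Ad, rose to 52.2 FPKM in high sugar embryos, against 13.0 FPKM in medium sugar embryos (adjusted p = 0.00959, taken from the authors' deposited table). Its ratio of 4.01 was below those of Lcp65Ag1 to Lcp65Ag3. The other 4 were untested, and Cpr65Ax1 and Cpr65Ax2, in the right part, were listed at 0 in both groups.

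The second Lcp array, Lcp1 to Lcp4 on 2R at 4318139 to 4325908, had a far smaller ratio as a whole. Lcp1 to Lcp4 are known as major cuticle proteins of the last larval instar, well after the stage sampled. Their array summed to 13.4 FPKM in high sugar and 9.24 FPKM in medium sugar embryos, a ratio of 1.45, with 0 of 3 tested genes called. Lcp4 had 8.84 FPKM in high sugar and 4.84 FPKM in medium sugar embryos, and the authors' deposited table gives it an unadjusted p of 0.0517, the smallest of the array. Lcp3 had 2.44 FPKM in high sugar and 3.46 FPKM in medium sugar embryos. Lcp1 had 1.36 FPKM in high sugar and 0.122 FPKM in medium sugar embryos and was not called. Lcp2 had 0.577 FPKM in high sugar and 0.832 FPKM in medium sugar embryos, and its untested pseudogene neighbour Lcp1Psi had 0.16 FPKM in high sugar and was listed at 0 in medium sugar embryos. Lcp9, alone on 2R at 20667558 to 20667892, was listed at 0 in both groups.

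The Ccp84A genes form a single array of 18.2 kb on 3R, from 2512450 to 2530625, and had modest levels. Ccp84Ac and Ccp84Ag made up most of the family's sum. Ccp84Ac had 30.0 FPKM in high sugar and 20.5 FPKM in medium sugar embryos, and the authors' deposited table gives it an unadjusted p of 0.0655. Ccp84Ag had 15.0 FPKM in high sugar and 8.73 FPKM in medium sugar embryos, and the authors' deposited table gives it an unadjusted p of 0.0307. Neither was called over all genes.

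The one call of the family was Ccp84Aa, at the right end, at 1.41 FPKM in high sugar and listed at 0 in medium sugar embryos (adjusted p = 0.00959, taken from the authors' deposited table). No numeric test statistic is given there for Ccp84Aa. Its neighbour Ccp84Ab had 0.46 FPKM in high sugar, was listed at 0 in medium sugar embryos and was not tested. Ccp84Ae had 3.70 FPKM in high sugar and 0.0927 FPKM in medium sugar embryos, a ratio of 40.0, and the authors' deposited table gives it an unadjusted p of 0.233. Ccp84Ad had 0.843 FPKM in high sugar and 1.13 FPKM in medium sugar embryos, and Ccp84Af had 0.158 FPKM in high sugar and 0.218 FPKM in medium sugar embryos. Both of these were lower in the high sugar group, and neither was called.

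Genes with large ratios were not all called. Of the 33 tested genes, 13 had values above 0 in both groups and ratios over 4, and the authors' test called 6 of these. The 6 called ones had at least 1.69 FPKM in medium sugar embryos. The 7 uncalled ones, Lcp1, Lcp65Ac, Lcp65Af, Ccp84Ae, TwdlH, TwdlN and TwdlP, had between 0.0613 and 0.668 FPKM there. Lcp65Af had a test statistic of 4.34, for which the authors' deposited table gives an unadjusted p of 0.164. TwdlD had a smaller statistic, 4.16, for which the authors' deposited table gives 5e-05, the smallest p it holds. Ccp84Aa was called from 1.41 FPKM against a listed 0, whereas Lcp65Ae, with 1.53 FPKM against a listed 0, was marked as not tested. No source used here states the rule behind these pairs.

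Grouped by the level in medium sugar embryos, the 9 tested genes under 1 FPKM had a median log2 ratio of 3.97 and 1 call. The 13 genes from 1 to 10 FPKM had a median of 1.86 and 8 calls, 61.5% of them. The 11 genes at 10 FPKM or more had a median of 0.61 and 1 call, TwdlD. In the same classes all tested genes had medians of 0.75, -0.04 and -0.05, with 5.45%, 0.791% and 0.435% called. The medium sugar level used for these classes is also the lower term of the ratio. The untested genes of the families were low in both groups. A gene under 1 FPKM in medium sugar may thus have been tested for its larger high sugar value. Under 1 FPKM all 9 tested genes of the families were higher in high sugar, as were 345 of 404 of all tested genes. The ratios of this class may therefore be partly set by which genes were tested. Against the mean of both groups, the log2 ratio had a Spearman correlation of -0.21 over the 33 tested genes and of 0.11 over the 38 with values above 0 in both groups, so its sign turned with the genes included. It was 0.003 over all tested genes and 0.0039 over all genes above 0 in both groups. These are descriptions, since level and ratio share the same 2 values.

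**Figure D3:**
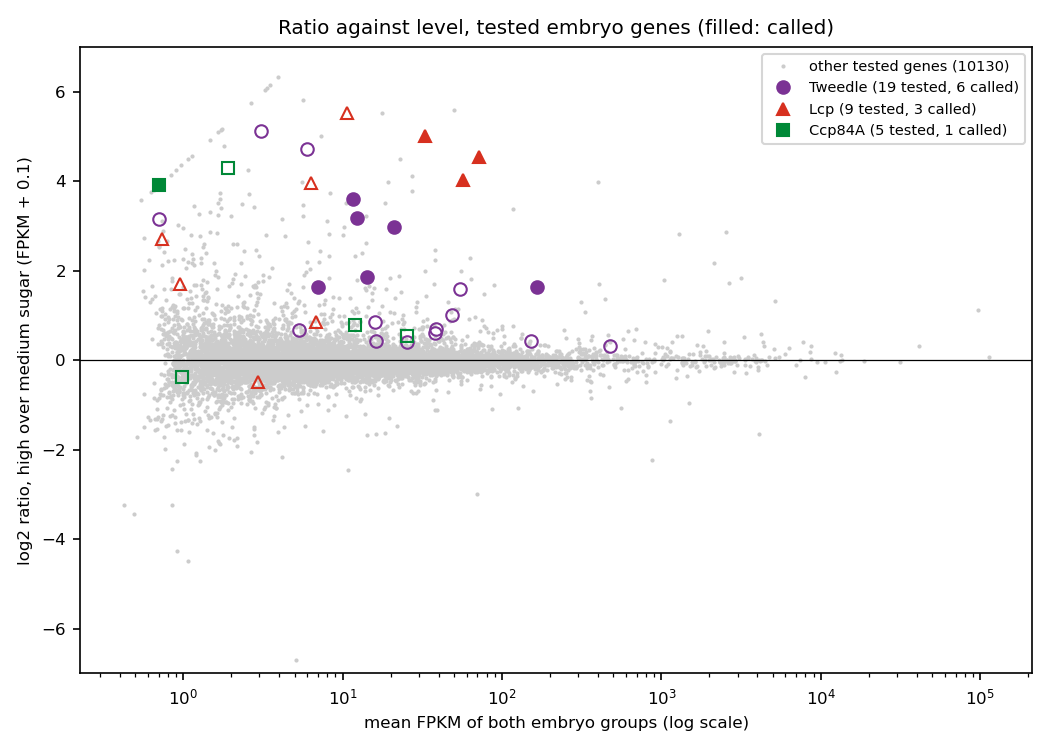
Log2 ratio of high over medium sugar against the mean FPKM of both embryo groups (log axis) for tested genes, with grey dots for other genes and coloured symbols for the 33 tested Tweedle, Lcp and Ccp84A genes, filled where called. The axis ends at a log2 ratio of 7 in each direction, which leaves out 25 other genes and 0 of the 33. All but 2 of the coloured symbols lie above 0.

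The 3 families made up 33 of the 10163 tested embryo genes. Of all 72 embryo genes called higher, 10 belonged to these families, 13.9%. Of the 113 tested embryo genes with a ratio over 4, 13 did, 11.5%. The other cuticle proteins, 76 genes mostly of the Cpr family, gave 9 rises and 0 falls among 37 tested, 24.3%, with a median log2 ratio of 1.20. Their largest called levels belonged to Cpr65Ea, at 620.1 FPKM in high sugar and 192 FPKM in medium sugar embryos, and Cpr51A, at 444 FPKM in high sugar and 180.1 FPKM in medium sugar embryos. The difference between these proteins and the 33 genes was not tested.

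Lists of genes for chitin and cuticle assembly, tanning and regulation had medians near 0. Of 32 tested genes for chitin and cuticle assembly, 2 rose and 0 fell, with a median log2 ratio of 0.10. That is 6.25% called, against 0.807% of all tested genes. At an unadjusted p under 0.05 of the authors' deposited table, 3 of the 32 (9.4%) were higher and 0 lower. Of all tested genes, 2.55% were higher at that threshold. The list also holds chitin-binding proteins that are part of the cuticle, such as Gasp and obst-A, and genes of wider use such as Rab11, Duox and SK. The 2 called genes were obst-E and zye. The chitin-binding protein obst-E was at 25.4 FPKM in high sugar and 2.63 FPKM in medium sugar embryos. The zona pellucida domain protein zye was at 8.52 FPKM in high sugar and 2.70 FPKM in medium sugar embryos. Of 11 tested genes for tanning, the hardening and darkening of cuticle, 0 were called in either direction. At an unadjusted p under 0.05 of the authors' deposited table, 3 of the 11 (27.3%) were higher and 0 lower. One of these was Ddc, dopa decarboxylase, at 2.56 FPKM in high sugar and 0.61 FPKM in medium sugar embryos, named after its values were seen. The most abundant tanning gene, ple, which encodes tyrosine hydroxylase, had 16.8 FPKM in high sugar and 19.7 FPKM in medium sugar embryos.

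Of 15 tested hormone and epidermal regulators, 1 rose and 0 fell (6.67% called, against 0.807% of all tested genes), with a median of 0.12. At an unadjusted p under 0.05 of the authors' deposited table, 2 of the 15 (13.3%) were higher and 0 lower, against 2.55% higher of all tested genes. The called gene was Eip74EF, an ecdysone-induced transcription factor, at 3.38 FPKM in high sugar and 1.33 FPKM in medium sugar embryos (adjusted p = 0.0496, taken from the authors' deposited table). The nuclear receptor gene ftz-f1, named after its values were seen, had 97.0 FPKM in high sugar and 57.2 FPKM in medium sugar embryos and was not called (unadjusted p = 0.0121, taken from the authors' deposited table). The epidermal regulator grh had 18.8 FPKM in high sugar and 20.7 FPKM in medium sugar embryos, and the chitin synthase kkv had 47.3 FPKM in high sugar and 50.1 FPKM in medium sugar embryos. The 13 epidermis and cuticle control genes all belong to the lists above as well, so they are not a separate set. They summed to 1630 FPKM in high sugar and 1324 FPKM in medium sugar embryos, and 9 of 13 were higher in high sugar embryos. Of the 13, 0 were called, and 1 was higher and 0 lower at an unadjusted p under 0.05 of the authors' deposited table. The part of these regulators and of the amount of epidermis in the result was not tested.

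**Figure D4:**
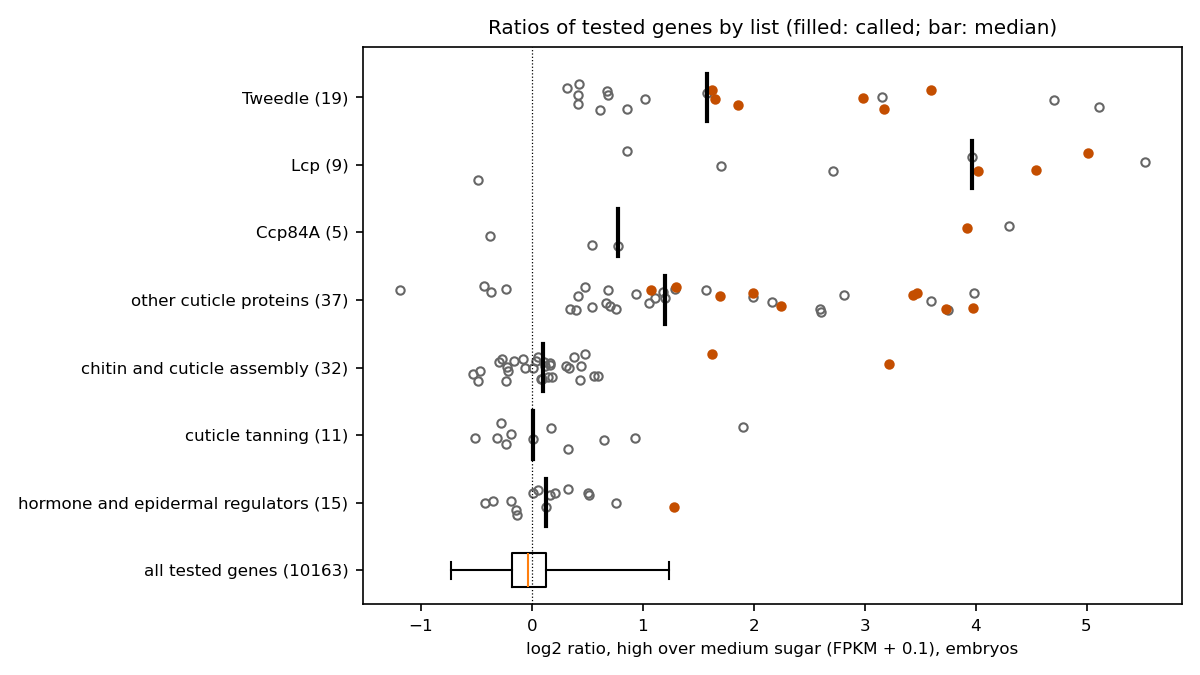
Log2 ratio of high over medium sugar in embryos for each tested gene of the 3 families and 4 other lists, with filled circles for called genes and a bar at the median. The box for all 10163 tested genes spans percentiles 25 to 75, with whiskers at percentiles 2.5 and 97.5. The medians of the 3 families (1.58, 3.97 and 0.78) and of the other cuticle proteins (1.20) lie to the right of those of the assembly (0.10), tanning (0.01) and regulator (0.12) lists.

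Genomic position and gene structure went with the families. In all, 43 of the 50 genes lie in 6 clusters in which neighbours are at most 20 kb apart. All 50 identifiers occur in the BDGP6 annotation, 47 as protein-coding genes and 3 as pseudogenes. The proteins are shortest in the Lcp family, with a median of 105 residues and a range of 92 to 130. Ccp84A proteins have a median of 205 residues and Tweedle proteins of 274, up to 388 in Twdlalpha. All 7 Ccp84A genes and 12 of 15 coding Lcp genes have 2 exons. Of the 25 coding Tweedle genes 8 have a single exon, among them TwdlO, TwdlK and TwdlJ, the stretch of the large array at or near 0, but also TwdlN and TwdlBeta. The 3 coding Lcp genes with a single exon, Lcp65Ab2, Lcp65Ab1 and Lcp65Aa, are those at the right end of the Lcp65A array.

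In sperm these genes were at or near 0, and none of the 50 was tested by the authors, so 0 calls could be made (0.341% of 6453 tested sperm genes were called). Of the 50, 39 were listed at 0 in both groups. The summed level was 9.45 FPKM in high sugar and 4.67 FPKM in medium sugar sperm, which is 0.0011% and 0.000556% of the summed FPKM of these groups. TwdlT was the one gene with a mean of at least 1 FPKM, at 3.35 FPKM in high sugar and 4.01 FPKM in medium sugar sperm. It shares its locus entry with Nep5, which had 243.5 FPKM in high sugar and 316 FPKM in medium sugar sperm, and with CG34292, at 34.3 FPKM in high sugar and 34.4 FPKM in medium sugar sperm. Reads of overlapping genes may not be separable, and the part of this in the TwdlT value was not tested.

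TwdlE had 0.339 FPKM in high sugar and 0.532 FPKM in medium sugar sperm, and TwdlY had 0.557 FPKM in high sugar and 0.138 FPKM in medium sugar sperm. The other 8 genes with any value were listed at 0 in medium sugar sperm. In high sugar sperm they ran from 0.137 FPKM for TwdlG to 1.11 FPKM for Lcp65Ad and 1.86 FPKM for Lcp65Af. None was at 0 in high sugar sperm alone. Over all genes of the sperm table, 1095 were listed at 0 in medium sugar alone and 513 in high sugar alone. The abundant embryo genes TwdlF, TwdlD and Lcp65Ag1 to Lcp65Ag3 were listed at 0 in both sperm groups. Spermatid markers, 8 genes, summed to 982 FPKM in high sugar and 380 FPKM in medium sugar sperm, and muscle markers, 5 genes, to 1691 FPKM in high sugar and 1714 FPKM in medium sugar sperm. The part of RNA from cells other than spermatozoa in the sperm values was not tested.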

How the data were processed

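Per the labels' protocols, Trizol was used to extract total RNA, ribosomal RNA was removed, and a stranded library kit followed. The submitters' processing notes name TopHat2 2.0.8, Cuffdiff 2.1.1 and BDGP5. No source used here states the annotation, the options or how groups were scaled. Per the file headers, the deposited expression values are FPKM, with 1 value per group, which the authors made from its 2 libraries. The deposited p-value, its Benjamini-Hochberg adjusted form and the test score (statistic) are the authors' own. No source used here states the formula of the statistic. The number of unused columns of per-sample values is 0.

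Members were matched by the start of the gene name, and ratios, sums and medians were computed from the deposited FPKM with Python 3.11.15 and pandas 2.3.3. No test between groups was refitted, since the tables hold no values per library. The adjustment was recomputed over tested genes and differed by over 0.001 from the deposited embryo column at 0 of 10163 genes, and its code was tested on simulated data. No label says whether a group's 2 libraries are separate crosses, so the authors' p-values may measure a technical spread. Locus starts in the tables were read as counting from 0, and 1 was added. Clusters joined members at most 20 kb apart. Strand, exons and protein lengths came from the newer BDGP6 annotation, matched by identifier, and no coordinates were taken from it.

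The members and lists were chosen with earlier results of these data known. All members are described, with values for every member called, at a mean of 1 FPKM or more, or inside a cluster. Of other lists, up to 4 called genes with the smallest adjusted p, or the 2 most abundant where none was called, could be named. grh and kkv were named for their roles, and Ddc and ftz-f1 after their values were seen. Of the name prefixes for other cuticle proteins, Cpr also matches the P450 reductase gene Cpr, which was left out. Of the list members, 33 of 35 for assembly, 12 of 16 for tanning and 20 of 22 for regulators matched the tables. As alternatives, calls were made at adjusted p thresholds of 0.01 and 0.1 and with a minimum log2 ratio of 1. They were also made with a minimum mean of 1 FPKM and with the recomputed adjustment. Medians were taken with pseudocounts of 0.01 and 1, with that minimum mean, over tested genes and with centring. Ratios of sums were taken without the highest member and as shares of the summed FPKM. Clusters were also joined with a gap of 50 kb.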

Additional observations from a re-analysis of the deposited data

How the results depend on the processing

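The count of 10 called embryo genes was 8 at an adjusted p under 0.01, 10 under 0.1, 10 with a minimum log2 ratio of 1, 9 at a mean of 1 FPKM or more and 10 with the recomputed adjustment. In 2 alternatives chosen after seeing the data, it was 10 without genes that share a locus entry and 8 with Lcp65Ag1 to Lcp65Ag3 counted as 1 gene. The sperm count stayed at 0, since no member was tested. The median embryo log2 ratio of all 50 genes (1.17) was 1.30 with a pseudocount of 0.01 FPKM, 0.70 with 1 FPKM, 1.603 at a mean of 1 FPKM or more, 1.65 over tested genes and 1.20 when centred on genes at 10 FPKM or more, whose median was -0.04. In the same order the Tweedle median (1.17) was 1.30, 0.73, 1.30, 1.58 and 1.20, and the Lcp median (1.38) was 1.91, 0.75, 4.02, 3.97 and 1.41. The Ccp84A median (0.78) was 0.55 with 1 FPKM and 0.81 when centred. The sperm median (0) was -0.25 over the single gene at 1 FPKM or more and 0.0803 when centred. The ratios of the sums without the highest member were 2.19 for Tweedle, 11.4 for Lcp, 2.13 for Ccp84A and 2.82 for all genes. As shares of each group's summed FPKM they were 1.52, 12.8, 1.505 and 1.84. Clusters numbered 6, and 7 with a gap of 50 kb. Under both other pseudocounts 0 of 49 named genes changed sign. Adding the same amount to both values cannot change the sign, so this count was fixed in advance. The cause of these shifts was not tested, apart from what each setting does by construction. No paired analysis was possible because the tables hold 1 value per group. For the same reason no replicate could be left out, and low values have no known counting error.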
